A study of Mus musculus with 3 samples.

Results

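The genes described here are 10 mouse receptor genes of the Fc receptor and paired immune receptor families. They are the Fc-gamma receptors Fcgr1, Fcgr2b, Fcgr3 and Fcgr4, their signalling chain Fcer1g, and the paired receptors Lilrb4a, Pirb, Sirpa, Cd300a and Cd300lb. They were chosen by name, out of 21154 gene symbols on the array, and comprise every non-control probe whose RefSeq accession belongs to one of these genes. That gave 11 probes, of which Lilrb4a had 2. All 10 genes passed the filter on dim probes, and 7 of them were well above background for both genotypes on all arrays.

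RNA came from whole brown adipose tissue, a fat depot that burns fuel for heat, taken from male Ad-Lkb1 mice (strain C57BL/6J in the labels) and from wild-type male littermates (strain C57BL/6 in the labels). Both groups were 10 weeks old and ate regular chow. Each of 3 two-colour Agilent arrays held 1 Ad-Lkb1 sample in Cy5 and 1 wild-type sample in Cy3, so that dye, strain label and genotype cannot be told apart. Which promoter drives the deletion of Lkb1, the kinase gene also called Stk11, is not given in the sources used here. The arrays came from 1 slide and 1 scan. Signal stood well above background for 46.7% to 51.3% of features, depending on array and dye, and 0 spots were saturated. The correlation between arrays over genes (Pearson's r, genes not being replicates) was 0.73 for arrays 1 and 2, 0.36 for arrays 1 and 3, and 0.50 for arrays 2 and 3. Ratios are Ad-Lkb1 over wild type throughout. For Stk11 they were -1.26, -1.17 and -1.17 (log2) on arrays 1 to 3 (mean -1.20, limma adjusted p = 0.0105).

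Fc receptors bind the constant part of antibodies. Activating Fc receptors pair with the Fc receptor gamma chain, whose ITAM (an activating tyrosine motif) is phosphorylated by Src-family kinases and then binds the kinase Syk. Inhibitory receptors carry an ITIM in their own tail, which recruits the phosphatases SHP-1, SHP-2 or SHIP-1 and raises the threshold for activation. In adipose tissue both kinds of receptor are known mainly from macrophages and other myeloid cells, which clear antibody-coated particles and dying cells. Paired receptors are families in which close relatives, often encoded side by side, carry opposite signals.

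The promoters of 4 of the 5 members that hold matches to the motif of a factor known to act on myeloid genes are shown. The windows cover the 250 bases before the annotated start, on the gene's strand, and come from RefSeq (GRCm38.p6). Capitals mark GAGGAA, the core bound by the myeloid factor PU.1, on either strand (its reverse complement reads TTCCTC). The windows are Fcgr1 at chr3:96293970-96294219 (minus strand), Fcgr3 at chr1:171059395-171059644 (minus strand), Fcgr4 at chr1:171018676-171018925 (plus strand) and Pirb at chr7:3720383-3720632 (minus strand).
Fcgr1: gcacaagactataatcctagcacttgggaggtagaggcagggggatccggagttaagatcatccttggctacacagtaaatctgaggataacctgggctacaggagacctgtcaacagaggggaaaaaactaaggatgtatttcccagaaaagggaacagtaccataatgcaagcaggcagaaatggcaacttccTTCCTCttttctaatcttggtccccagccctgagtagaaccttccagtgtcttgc
Fcgr3: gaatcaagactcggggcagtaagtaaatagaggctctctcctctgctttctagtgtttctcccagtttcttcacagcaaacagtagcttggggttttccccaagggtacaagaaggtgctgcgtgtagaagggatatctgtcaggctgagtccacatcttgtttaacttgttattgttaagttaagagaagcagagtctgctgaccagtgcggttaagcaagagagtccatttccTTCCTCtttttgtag
Fcgr4: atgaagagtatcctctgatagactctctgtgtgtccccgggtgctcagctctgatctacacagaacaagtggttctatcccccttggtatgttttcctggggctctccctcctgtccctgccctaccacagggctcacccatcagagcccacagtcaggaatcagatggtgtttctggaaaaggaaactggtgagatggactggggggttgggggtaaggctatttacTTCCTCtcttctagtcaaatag
Pirb: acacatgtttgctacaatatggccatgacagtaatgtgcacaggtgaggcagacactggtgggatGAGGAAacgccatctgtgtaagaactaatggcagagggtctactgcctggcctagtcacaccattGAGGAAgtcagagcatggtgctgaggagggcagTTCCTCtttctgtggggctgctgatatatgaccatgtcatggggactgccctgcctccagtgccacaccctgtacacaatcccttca
The PU.1 core began 55 bases before the start of Fcgr1, 15 before that of Fcgr3 and 22 before that of Fcgr4. Pirb held 3 copies, beginning 185, 120 and 87 bases before its start. From another annotated start of Fcgr3 the same copy begins 6 bases upstream. The core stood in 6 of the 9 windows of member genes, and in 23.3% of 32851 promoter windows of the same length. These 6 windows belong to 5 of the 8 members that have a window (the fifth, not shown, is Cd300a). Sirpa and Lilrb4a had no window in the table. A match is a description of letters only.

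Of the 10 genes, 5 were higher in Ad-Lkb1 brown fat at an adjusted p under 0.05 (limma, Benjamini-Hochberg over 19329 genes and unnamed features): Lilrb4a, Pirb, Fcgr3, Sirpa and Cd300lb. None (0) was lower. Cd300lb passed the filter on dim probes through its Ad-Lkb1 signal alone, and 4 of the 7 genes measured in both genotypes on all arrays were called higher. Over all features tested 4.78% were called higher and 3.92% lower (8.7% in either direction). The median log2 ratio of the 10 genes was 1.02, against -0.0099 over all features. In whole tissue, more cells of a type and more RNA per cell cannot be told apart. Calls changed when an array was left out: without array 1 and without array 2 limma called 0 of the 10 (7 at an unadjusted p under 0.05 in each case), and without array 3 it called 8. The loss was general: without array 1 or array 2 limma called 0 of 19328 features, with 3929 and 3562 at an unadjusted p under 0.05. Without array 3 limma called 1332 of 19327 features higher and 720 lower. Of the 8 genes called in that setting, Fcgr1 and Cd300lb passed the filter on dim probes through their Ad-Lkb1 signal alone. With all arrays 29.3% of features, and 8 of the 10 genes, had an unadjusted p under 0.05. Without a filter on dim probes it also called 0, with 7 at an unadjusted p under 0.05, over 36799 features tested.

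**Figure D1:**
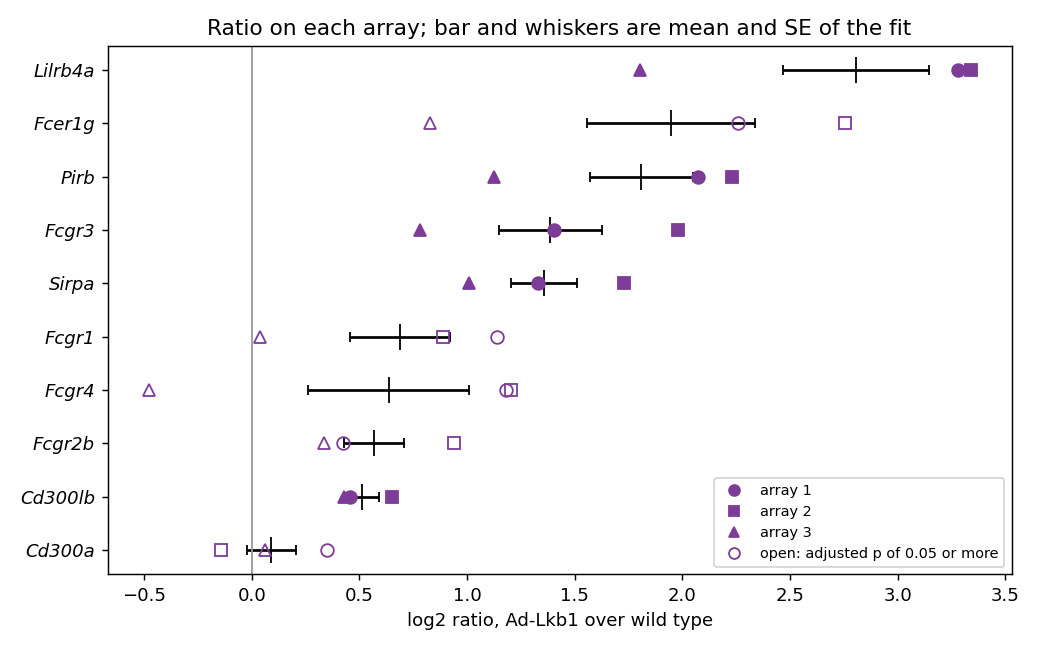
Ad-Lkb1 over wild-type ratio on the log2 scale (x axis) for each of the 10 genes (y axis). Symbols are the 3 arrays, filled where the adjusted p was under 0.05, and the bar with whiskers is the mean and SE of the limma fit. Array 3 gave the lowest ratio in 9 of the 10 genes, and Lilrb4a had the highest mean at 2.81.

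Of the 3 activating Fc-gamma receptors, Fcgr3, which encodes the low-affinity receptor FcγRIII, passed the test. Its level, a normalized log2 intensity, was 8.27, 8.49 and 8.25 in the Ad-Lkb1 samples of arrays 1 to 3, against 6.87, 6.51 and 7.46 in the wild-type samples. All Ad-Lkb1 samples lay above all wild-type samples. The difference was 2.62-fold (log2 ratio 1.39 ± 0.60 SD, n = 3 arrays, SE 0.24, limma adjusted p = 0.0421).

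Fcer1g encodes the common gamma chain through which the activating Fc receptors signal. Its level was 10.80, 11.01 and 10.75 in Ad-Lkb1 samples, against 8.54, 8.25 and 9.92 in wild-type samples. The groups did not overlap, but the wild-type sample of array 3 stood far above the other wild-type samples. Fcer1g had the second highest mean ratio of the set, 1.95 ± 1.00 (SD, n = 3; 3.86-fold), and just missed the threshold (limma adjusted p = 0.0546). It passed in 5 of 9 other processing settings, and without array 3 the ratio was 2.51 (limma adjusted p = 0.00528). It was 1.79 without array 1 and 1.54 without array 2 (limma adjusted p = 0.237 and 0.195).

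Fcgr4 encodes an activating receptor for IgG2a and IgG2b. It had levels of 7.89, 7.77 and 7.69 in Ad-Lkb1 samples, against 6.71, 6.56 and 8.17 in wild-type samples. The raw wild-type intensity was 111, 99.5 and 395.5 on arrays 1 to 3, so array 3 was also high before normalization. That wild-type sample had the highest level of all 6, so the groups overlapped and the ratio changed sign, with 1.18, 1.20 and -0.48 on arrays 1 to 3. The mean of 0.64 did not pass the test (SD 0.97, limma adjusted p = 0.342), and without array 3 it was 1.19 (limma adjusted p = 0.00758). Without array 1 it was 0.36 and without array 2 it was 0.35 (limma adjusted p = 0.717 and 0.746).

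Fcgr1 encodes the high-affinity receptor FcγRI. Its levels were 7.25, 6.84 and 6.74 in Ad-Lkb1 samples, against 6.11, 5.95 and 6.70 in wild-type samples. The groups did not overlap, by a narrow margin on array 3, where the ratio was 0.038. On 2 of 3 arrays the wild-type signal was well above background. The mean ratio of 0.69 ± 0.58 (SD, n = 3) did not pass (limma adjusted p = 0.138), and without array 3 it was 1.01 (limma adjusted p = 0.0140). Leaving out array 1 gave 0.46 and leaving out array 2 gave 0.59 (limma adjusted p = 0.409 and 0.411). With the software's processed signals the ratio was 1.93.

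Fcgr2b encodes FcγRIIB, the inhibitory member of the Fc-gamma family. Its levels were 7.07, 7.33 and 7.33 in Ad-Lkb1 samples, against 6.65, 6.40 and 6.995 in wild-type samples. The groups did not overlap, and the ratio was above 0 on all arrays, at 0.43, 0.94 and 0.34. The mean of 0.57 ± 0.32 (SD, n = 3; 1.48-fold) did not pass (limma adjusted p = 0.0815). With the software's processed signals the mean was 1.18.

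The Fcgr2b probe was printed 10 times on each array, and 9 spots per array were used after 1 was marked as an outlier. These spots give the measurement error within an array, apart from the differences between samples. The used spots ranged from 0.35 to 0.53 on array 1, from 0.88 to 1.00 on array 2 and from 0.24 to 0.43 on array 3. The SD within an array was 0.078, 0.046 and 0.058, and the SD of the 3 array means was 0.32. Each array mean comes from another pair of samples, so the SD between arrays holds the spread between samples as well. Within each array the ratio of Fcgr3 exceeded that of Fcgr2b, by 0.98, 1.04 and 0.44 (mean 0.82 ± 0.33 SD, n = 3). An exact two-sided sign-flip test gave p = 0.25, which is the smallest that 3 arrays allow, so it cannot decide whether the genes differ. This comparison was not among the planned tests.

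**Figure D2:**
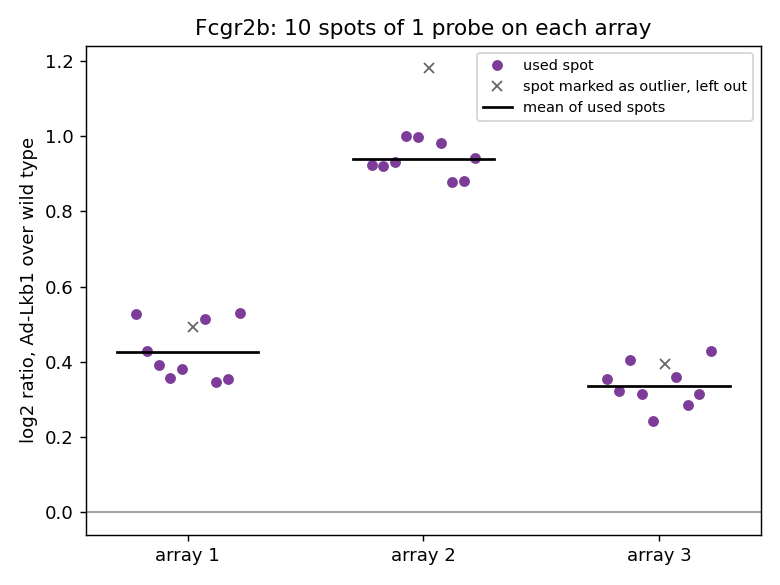
Ad-Lkb1 over wild-type ratio on the log2 scale (y axis) of the replicate Fcgr2b spots on arrays 1 to 3 (x axis). Dots are the 9 used spots of an array, the cross is the spot marked as an outlier, and the line is the mean of the used spots, at 0.43, 0.94 and 0.34.

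Among the inhibitory paired receptors, 3 of 4 were called higher in Ad-Lkb1 tissue (4.78% of all features were called higher). Lilrb4a, which encodes an ITIM-bearing receptor of myeloid and mast cells also called gp49B, had the highest ratio of the set and ranked 11 among 13129 named genes tested. Its brighter probe had levels of 10.34, 10.27 and 10.08 in Ad-Lkb1 samples, against 7.06, 6.93 and 8.28 in wild-type samples. The lowest Ad-Lkb1 sample lay well above the highest wild-type sample. Before any normalization its median spot intensity was 767, 840 and 740 in the Cy5 channel (Ad-Lkb1), against 165, 143.5 and 439 in the Cy3 channel (wild type), which differ in background and gain. The difference was 7.0-fold (log2 ratio 2.81 ± 0.87 SD, n = 3, SE 0.34, limma adjusted p = 0.0247).

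The dimmer Lilrb4a probe gave ratios of 2.06, 2.01 and 1.20, and its wild-type signal was well above background on 1 of 3 arrays. Lilr4b, a close paralog that lies beside Lilrb4a on chromosome 10, had ratios of 1.91, 2.37 and 1.17 (mean 1.82, limma adjusted p = 0.0279). Which of these 2 genes each probe measured is uncertain.

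Pirb encodes PIR-B, an ITIM receptor for MHC class I molecules. It had levels of 9.19, 9.27 and 9.27 in Ad-Lkb1 samples, against 7.12, 7.04 and 8.14 in wild-type samples. The Ad-Lkb1 samples were nearly equal, while the wild-type sample of array 3 stood above the other wild-type samples. The difference was 3.51-fold (log2 ratio 1.81 ± 0.60 SD, n = 3, SE 0.24, limma adjusted p = 0.0275). Pirb has close activating relatives, the Pira genes, so its probe may not separate them. The relative Pira2 had a ratio of 0.75 (limma adjusted p = 0.0229), but its wild-type signal was well above background on 0 of 3 arrays, so that the size of this difference is not settled.

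Sirpa encodes SIRPα, the ITIM receptor that binds CD47 and restrains phagocytosis. Its levels were 8.80, 8.97 and 8.77 in Ad-Lkb1 samples, against 7.46, 7.24 and 7.76 in wild-type samples. The groups did not overlap, and the ratio was above 1 on every array (1.33, 1.73 and 1.01). The difference was 2.56-fold (log2 ratio 1.36 ± 0.36 SD, n = 3, SE 0.15, limma adjusted p = 0.0228).

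The CD300 pair lies side by side on chromosome 11. Cd300a, an inhibitory receptor for phospholipids on dying cells, had levels of 6.38, 6.30 and 6.26 in Ad-Lkb1 samples, against 6.03, 6.44 and 6.20 in wild-type samples. The groups overlapped and the mean ratio of 0.091 ± 0.25 (SD, n = 3) did not pass (limma adjusted p = 0.658), with the wild-type signal well above background on 1 of 3 arrays. Its direction turned to -0.039 without array 1, and with the software's processed signals the ratio was 0.73.

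Cd300lb encodes an activating relative that signals through the adaptor DAP12. Its levels were 6.36, 6.48 and 6.40 in Ad-Lkb1 samples, against 5.91, 5.83 and 5.97 in wild-type samples. The wild-type signal was well above background on 0 of 3 arrays, so the measured difference of 1.43-fold (limma adjusted p = 0.0363) rests on a wild-type level near background and fixes no minimum. The log2 ratio was 0.51 as reported, 0.44 without array 2 and 3.50 with the software's processed signals.

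**Figure D3:**
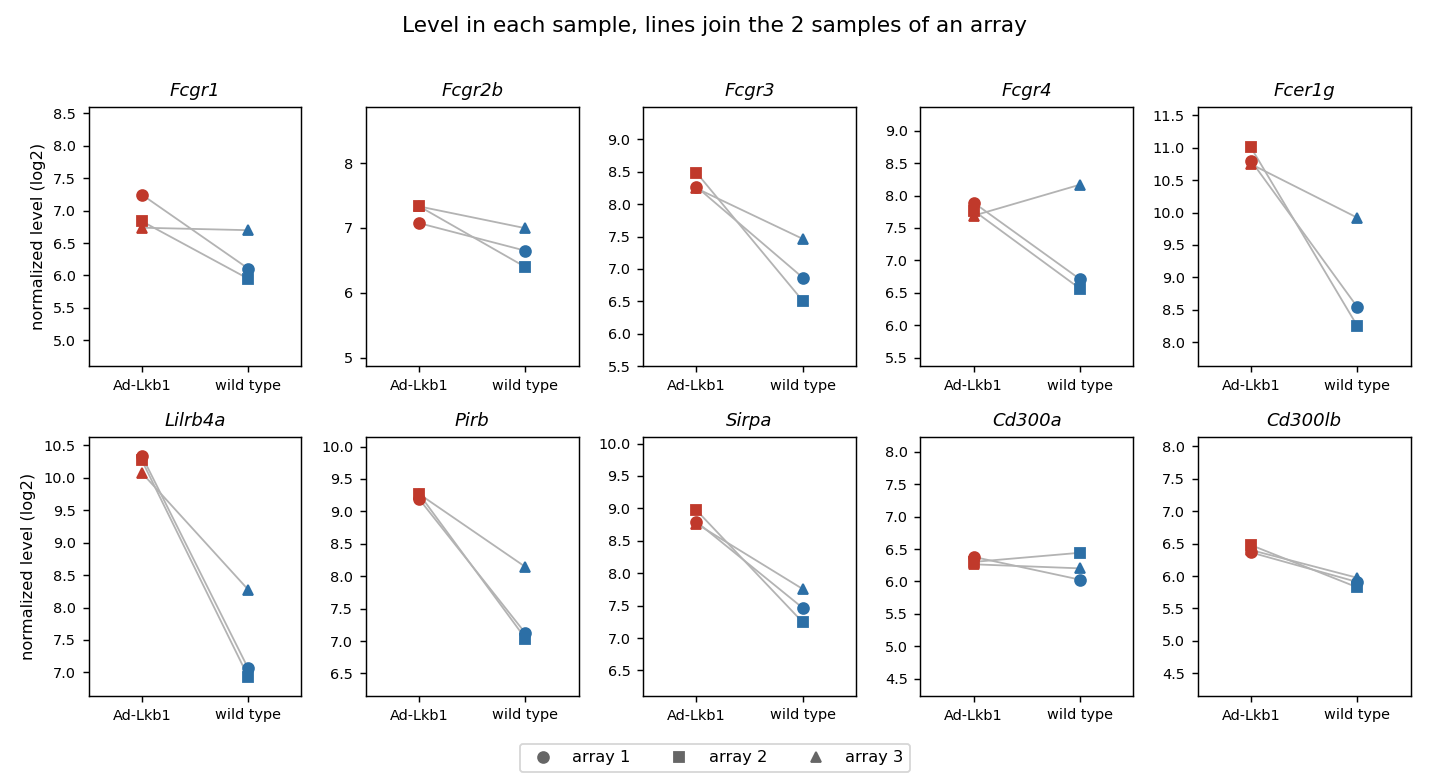
Normalized log2 level (y axis, each panel spanning the same number of units) in Ad-Lkb1 samples (left) and wild-type samples (right) for each gene. Symbols are the 3 arrays, and lines join the 2 samples of an array. The lines of array 3 are flatter than the others for Fcer1g, Lilrb4a and Pirb, and slope the other way for Fcgr4.

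The 10 genes varied with the arrays in one way: the wild-type sample of array 3 was high in them. Its level exceeded the mean of the other wild-type samples by a median of 0.72 over the 10 genes (range -0.033 to 1.53), against -0.026 over all features. The Ad-Lkb1 sample of array 3 differed from the other Ad-Lkb1 samples by a median of -0.13 (range -0.31 to 0.13). Wild type on array 3 was the highest wild-type sample in 9 of 10 genes, against 29.7% of all features. The Ad-Lkb1 sample of array 3 was the lowest of its genotype in 7 of 10 (39.3% of all features), and the ratio was lowest on array 3 in 9 of 10 (33.6% of all features). The excess was 1.53 for Fcgr4, 1.52 for Fcer1g, 1.28 for Lilrb4a and 1.06 for Pirb, against 0.40 for Sirpa. It was 0.11 for Cd300lb and -0.033 for Cd300a. Their wild-type signal was well above background on 0 and 1 of 3 arrays, so that these 2 values are not settled. Fcgr1, Cd300a and Cd300lb enter all counts here but passed the filter on dim probes through their Ad-Lkb1 signal alone. The SD of the levels was lower in Ad-Lkb1 than in wild-type samples in 10 of 10 genes (0.045 to 0.27 against 0.074 to 0.89), as in 59% of all features.

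**Figure D4:**
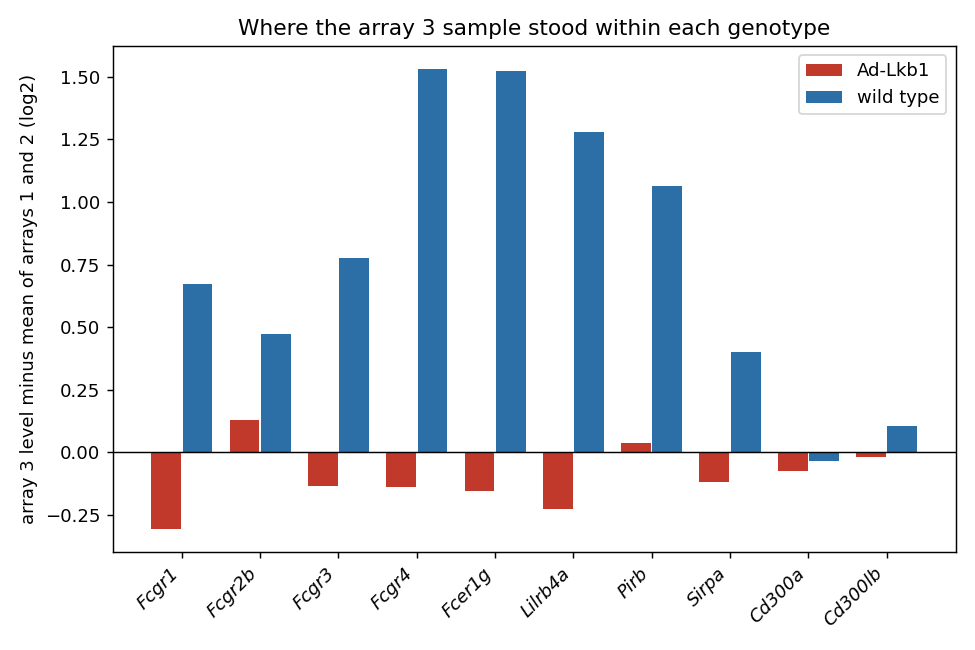
Level in the array 3 sample minus the mean level of arrays 1 and 2 of the same genotype (y axis, log2) for each gene (x axis), with Ad-Lkb1 bars left of wild-type bars. Wild-type bars reach 1.53 and are above 0 in 9 genes, while Ad-Lkb1 bars lie between -0.31 and 0.13.

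The ratio was above 0 on all 3 arrays in 8 of the 10 genes (24% of all features), and the groups did not overlap in 8 of 10 (17.7% of all features with Ad-Lkb1 higher). The exceptions in both counts were Fcgr4 and Cd300a. Fcgr1 and Cd300lb stand in both counts but passed the filter on dim probes through their Ad-Lkb1 signal alone. Of the 7 genes measured in both genotypes on all arrays, all but Fcgr4 met both counts. Per array the median ratio of the 10 genes was 1.26, 1.47 and 0.60.

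Downstream of the activating receptors, 16 of 18 listed ITAM adaptors and proximal kinases were measured. Of these, 3 rose (4.78% of all features were called higher) and 0 fell, with a median log2 ratio of 0.53. Tyrobp, which encodes DAP12, an ITAM adaptor like the gamma chain, had a ratio of 2.24 (limma adjusted p = 0.0432). Syk, the kinase that binds phosphorylated ITAMs, had 0.92 (limma adjusted p = 0.0325) and the adaptor Blnk 1.22 (limma adjusted p = 0.0260). The median of the list was 0.64 on array 1, 0.99 on array 2 and 0.036 on array 3.

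A broader list, headed ITIM phosphatases and inhibitory adaptors, held Ptpn6, Ptpn11, Inpp5d, Inppl1, Dok1, Dok2, Dok3, Ptprc and the kinase Csk. Not all of these genes act at ITIMs. All 9 were measured, and limma called 0 of them, with 4 of 9 at an unadjusted p under 0.05 (29.3% of all features). Their median was 0.54. Dok1, an adaptor that dampens receptor signals, had the smallest p, with a ratio of 0.60 (limma adjusted p = 0.0552). Of 14 measured genes of Fc receptor phagocytosis, 1 rose, a share near the 4.78% of all features. This was Ncf4, a subunit of the phagocyte NADPH oxidase, with 1.29 (limma adjusted p = 0.0471). The median of this list was 0.45.

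Other paired and inhibitory myeloid receptors showed 8 of 23 measured genes higher and 0 lower, with a median of 0.29. Over all features 4.78% were called higher. Among the 8, Lilr4b, Pira2, Sirpb1a and Sirpb1b passed the filter on dim probes through their Ad-Lkb1 signal alone. Their wild-type signal was well above background on 2, 0, 1 and 1 of 3 arrays. The Lilr4b probe may also measure Lilrb4a. Trem2, a lipid receptor that signals through DAP12, had the highest ratio of the list. Its levels were 9.87, 10.1 and 9.47 in Ad-Lkb1 samples, against 6.46, 6.35 and 6.47 in wild-type samples (log2 ratio 3.39, limma adjusted p = 0.0105). Unlike Lilrb4a or Pirb, Trem2 did not stand high in the wild-type sample of array 3. Cd300c2, an activating CD300 relative, had 1.74 (limma adjusted p = 0.0225), and Sirpb1a, an activating relative of Sirpa, had 1.10 (limma adjusted p = 0.0275), with the wild-type signal of Sirpb1a well above background on 1 of 3 arrays.

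Of 6 other Fc receptors measured, 1 rose (4.78% of all features were called higher): Fcrls, an Fc receptor-like gene, with 0.75 (limma adjusted p = 0.0185). The median was 0.055. Among 11 ligands and partners, 2 rose, with a median of 0.10. Thbs1, encoding the CD47 ligand thrombospondin-1, had 0.98 (limma adjusted p = 0.0142), and Fn1, encoding fibronectin, had 0.89 (limma adjusted p = 0.0394). Of 8 interferon and PU.1 family regulators measured, limma called 0, with 1 at an unadjusted p under 0.05, a smaller share than the 29.3% of all features. That gene was Irf5, with 0.69 (limma adjusted p = 0.105). Spi1, which encodes PU.1, did not pass the filter on dim probes.

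Markers of some myeloid cell types were also higher in Ad-Lkb1 tissue. Of 11 measured macrophage markers (14 listed), 6 rose and 0 fell, with Cd68 at 2.24 (limma adjusted p = 0.0229), Adgre1 at 1.88 (limma adjusted p = 0.0256) and Mrc1 at 1.63 (limma adjusted p = 0.0268). Fcrls, given above among the other Fc receptors, is in this list too and counts among the 6. Over all features 4.78% were called higher. The ratio was above 0 in 8 of the 11 markers. Itgam (-0.093), Cd14 (-0.027) and Cx3cr1 (-0.32), named after their values were seen, lay below 0 and did not pass. The mean level over the 11 markers was 8.66, 8.59 and 8.57 in Ad-Lkb1 samples, against 7.57, 7.45 and 8.11 in wild-type samples, where array 3 was again the highest. Cd163, Timd4 and Vsig4 did not pass the filter. Their part in the receptor results was not tested.

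Neutrophil markers rose in 2 of 6 measured, while 4.78% of all features were called higher. These were S100a8 at 2.17 and S100a9 at 2.39 (limma adjusted p = 0.0346 and 0.0392). Elane (0.27) and Retnlg (0.67) lay above 0 and Csf3r (-0.19) and Camp (-0.021) below 0. None of them passed, and they were named after their values were seen. Mpo and Ngp did not pass the filter, and Ly6g was not on the array. The mean level over the 6 neutrophil markers was 8.56, 8.96 and 9.26 in Ad-Lkb1 samples, against 8.09, 7.86 and 8.18 in wild-type samples. Mast cell and basophil markers rose in 3 of 5 (Mcpt4, Cpa3, Cma1) and fell in 1 (Kit), against 4.78% and 3.92% of all features. Cpa3 and Cma1 passed the filter through their Ad-Lkb1 signal alone. Their wild-type signal was well above background on 2 and 0 of 3 arrays. Fcer1a and Ms4a2, which encode chains of the IgE receptor, did not pass the filter. The mean level over the 5 measured markers was 7.32, 7.08 and 7.23 in Ad-Lkb1 samples, against 6.79, 6.65 and 6.81 in wild-type samples.

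Limma called 0 of 7 natural killer and T cell markers, 0 of 2 B cell markers and 0 of 4 dendritic cell markers (0, 0 and 1 at an unadjusted p under 0.05). Over all features 8.7% were called in either direction and 29.3% had an unadjusted p under 0.05. In lists this small, 0 called is close to that share of called features. The mean level of the natural killer and T cell markers was 7.70, 7.63 and 7.60 in Ad-Lkb1 samples, against 7.21, 7.16 and 8.37 in wild-type samples. Gzma, a granzyme of cytotoxic lymphocytes named after its values were seen, had 9.03, 8.56 and 8.38 in Ad-Lkb1 samples, against 6.64, 6.42 and 10.6 in wild-type samples. The wild-type sample of array 3 was thus the highest of all 6 for Gzma, as for Fcgr4. The labelled tissue showed its own markers: all 10 brown adipocyte genes were measured. Of these, 3 rose (4.78% of all features were called higher) and 0 fell. Ucp1, the uncoupling protein, had a ratio of 1.48 (limma adjusted p = 0.0114). The ratio was above 0 in 7 of the 10 genes. Prdm16 (-0.33), Plin1 (-0.26) and Adipoq (-0.13), named after their values were seen, lay below 0 and did not pass.

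The 7 genes measured in both genotypes on all arrays had a median ratio profile of 1.40, 1.98 and 0.83 on arrays 1 to 3. By Euclidean distance over the 3 arrays, the nearest named genes were Timp1 (0.10), Cd300ld (0.15), 5730416F02Rik (0.19), Myo1f (0.26) and Emp3 (0.28). Timp1 encodes an inhibitor of metalloproteases, Cd300ld a CD300 relative and Myo1f a myosin of immune cells. With 3 points per gene this likeness is a description.

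**Figure D5:**
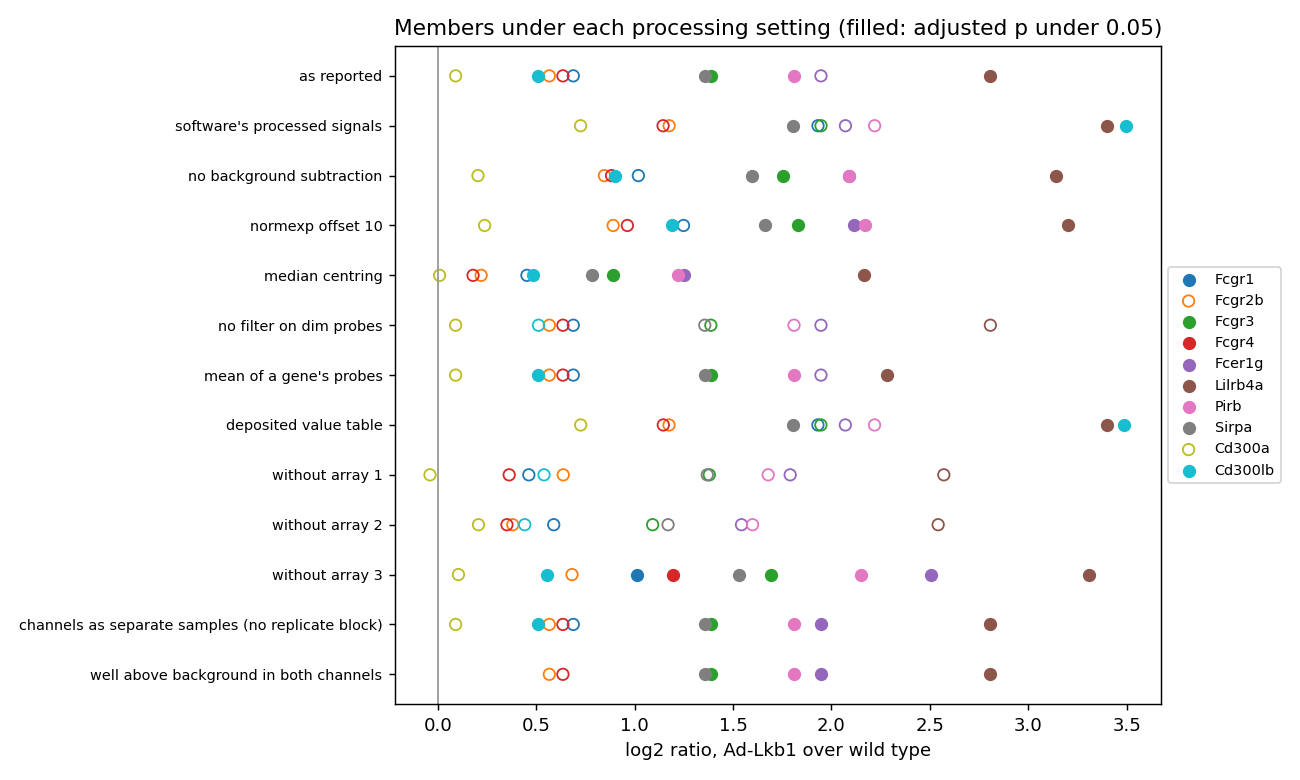
Ad-Lkb1 over wild-type ratio on the log2 scale (x axis) of each gene under each processing setting (y axis). Filled symbols had an adjusted p under 0.05. No gene but Cd300a lies below 0 in any setting, and 8 genes are filled without array 3 against 0 without array 1 or array 2. Over all features, 1332 were called higher without array 3 and 0 without array 1 or array 2.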

How the data were processed

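Scanner files of 3 two-colour Agilent arrays were used. Per the file headers they hold median spot and background intensity in both channels, and the software's log10 ratio (red over green). The authors used Agilent Feature Extraction 11.5, per the submitters' processing notes. The deposited value table matched that log10 ratio by feature (largest difference 0.00494), with column medians of 0.0. The software had set 26.8% to 27.8% of these ratios to 0.

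From the deposited intensity values, limma 3.58.1 in R 4.3.3 gave the ratios: normexp (offset 50), loess within arrays and spots of a probe averaged. The plan named mean signals, and the files hold medians, which were used. Levels are log2 values of each channel after a further Aquantile scaling, computed from the deposited intensity values. The offset understates folds of dim genes. A probe was kept where at least 1 channel stood well above background on every array (25033 of 55681), and a gene was represented by its brightest kept probe. Symbols came from RefSeq (GRCm38.p6) by accession: 28026 of 29796 probes matched 1 symbol. The log2 ratio was tested against 0 with limma, which pairs the samples of an array, with Benjamini-Hochberg adjustment over 19329 features. The design text calls the replicates biological.

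Members and lists were chosen with earlier results of these data known. Named genes were the members, Stk11, Ucp1, up to 4 genes of smallest p past the threshold in each list (or the 1 of smallest p where none passed) and the 5 nearest profiles. Lilr4b was named as the close paralog. Alternatives changed the background correction, normalization, filter, probe choice, value table, pairing and arrays. The procedure was tested on simulated data. Some items are not reported here.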

Additional observations from a re-analysis of the deposited data

How the results depend on the processing

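The reported counts were 923 features higher and 758 lower, 5 receptor genes higher and 0 lower, and 15 of the 87 other pathway genes higher and 0 lower. With the software's processed signals the counts were 529, 281, 3 and 8 higher, and with the values deposited by the authors 526, 280, 3 and 8, in the order all features higher, all features lower, receptor genes higher and other pathway genes higher. Without a filter on dim probes they were 541, 492, 0 and 4, over more features tested. Median centring gave 389 higher and 9710 lower, with 16 pathway genes lower. In that setting the median log2 ratio over the features tested was -0.42. Leaving out an array gave 0 to 1332 features higher, 0 to 720 lower, 0 to 8 receptor genes higher and 0 to 43 pathway genes higher. The ratios are paired within arrays, and without that pairing (no replicate block) the counts were 1563 higher and 1370 lower, with 23 pathway genes higher and 1 lower. The median ratio of the receptor genes was 1.94 with processed signals or the value table, against 1.02 as reported, 0.63 with median centring and 0.84 to 1.36 without an array. That of the pathway genes was 0.96 with either, 0.63 with an offset of 10, 0.18 without the filter and 0.093 with median centring, against 0.32 as reported. Cd300a reversed to -0.039 without array 1, and was at most 0.21 without another array. The cause was not tested. Over the 9 settings other than leaving out an array, Lilrb4a ranged from 2.17 to 3.40 and Sirpa from 0.78 to 1.81, each past the threshold in 8. Pirb and Fcgr3 passed in 6 of 9. Cd300lb passed in 7 of 8. Signal over background limits Fcgr1, Cd300a and Cd300lb, whose wild-type signal was not well above background on all arrays: with processed signals their ratios were 1.93, 0.73 and 3.50, against 0.69, 0.091 and 0.51 as reported. The shift was not limited to them. Fcgr2b and Fcgr4, measured in both genotypes on all arrays, had 1.18 and 1.14 with processed signals, against 0.57 and 0.64 as reported.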

Other observations

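The array pattern of the receptor genes was not that of every myeloid list. S100a8 had log2 ratios of 1.22, 2.86 and 2.44 on arrays 1 to 3 and S100a9 had 1.30, 3.29 and 2.58, so that array 1, not array 3, was the lowest for both neutrophil genes. Mcpt4, a mast cell protease, had 1.47, 1.37 and 1.57, nearly the same on each array. MHC class I genes, which encode ligands of PIR-B, followed the wild-type sample of array 3: B2m had levels of 14.7, 14.1 and 14.1 in Ad-Lkb1 samples, against 12.8, 12.6 and 14.8 in wild-type samples, and H2-K1 had ratios of 1.33, 1.26 and -1.04. These genes were named after their values were seen, and the differences between patterns were not tested.

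The 3 probes of Lilra6, a Pira-family relative of Pirb, had mean log2 ratios of 0.32, 0.64 and 1.56, with the wild-type signal well above background on 0, 1 and 3 of 3 arrays. The ratios of the dimmer probes are compressed by the offset, so these values do not show that the probes differ. Lilra6 was named after its values were seen.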
